A study of Mus musculus with 5 samples.

Results

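Zdbf2, Rasgrf1, Peg13 and Kcnq1ot1 are 4 imprinted genes that lie outside the Peg10, Peg3 and Meg3 loci, and they were read here in RNA from mouse striatum. They were chosen by their imprinting and by their per-library levels in knock-in and wild-type striatum, with earlier results of that comparison known, so their differences between the genotypes are given as a description and carry no test. Each gene was read by 1 fixed feature out of 53700, a feature being a set of exon positions on which the depositors counted fragments.

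RNA was profiled in striatal homogenates of adult mice of the Adcy5 R419W knock-in line (KI, 2 libraries, replicates 1 and 3) and of wild-type littermates (WT, 3 libraries, replicates 1 to 3). The allele changes Adcy5, the chief source of cAMP in striatal neurons, an adenylyl cyclase controlled by dopamine and adenosine receptors. Whether KI animals carried the allele on both chromosomes, and their strain, sex and age beyond adult, are not stated in the labels. No label says that each library came from a separate animal, so the spread between libraries may be technical.

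The counted features lie at GRCm39 positions, yet the 33901 features with no GRCm38 exon at their position held only 1.057% of the counts, so the reads were taken to lie at GRCm38 positions and the name that the files' annotation gives a feature does not say which gene it read. Features were named by the GRCm38 exons at their positions. Total counts lay between 6595105 and 7910584 per library, and 3 counts correspond to 0.379 to 0.455 CPM (counts scaled to a common library size), the level that a count of 0 still allows when only counting error is considered. Of 20 spiny projection neuron markers, which define the output neurons of the striatum, 9 had a feature, and 8 of these held more than 3 counts in a library; the Meis2 feature held 1 count in WT replicate 1 and 0 in the other libraries. Adcy5 has no feature over its GRCm38 exons, so the genotype labels could not be checked on it.

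Imprinted genes are transcribed mainly or only from the chromosome inherited from a given parent, and a methylation mark set in the germ line keeps the parental copies apart. All 4 genes are known in mouse as paternally expressed. Zdbf2 encodes a zinc finger protein that in mouse promotes feeding and growth after birth, and an RNA that starts far upstream of the gene in the early embryo, Liz, sets its later activity. Rasgrf1 encodes a neuronal exchange factor that responds to calcium and calmodulin and activates Ras, and in striatal neurons it links glutamate and dopamine receptors to the ERK kinases. Peg13 is a noncoding RNA made from within an intron of Trappc9 and is most abundant in brain. Kcnq1ot1 is a long noncoding RNA that runs antisense through Kcnq1 and silences neighbouring genes on the paternal chromosome.

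The exon bases of each gene under its feature were few, and the files give 1 count per feature, not per block. For Zdbf2 (GRCm38 chromosome 1, 63273265 to 63314576, plus strand) the feature ENSMUSG00000087561 lay wholly within exons of the gene and covered 882 of 12659 exon bases, 361 of them coding and 521 untranslated. For Rasgrf1 (chromosome 9, 89909908 to 90026977, plus strand) the feature ENSMUSG00000062270 held 9754 bases in 12 blocks, all within the gene. Of these bases 640, in 4 blocks, were coding exon and the rest intron, so its counts can hold fragments of unspliced RNA. For Kcnq1ot1 (chromosome 7, 143203458 to 143296549, minus strand) the feature ENSMUSG00000037613 lay wholly in the single long exon and covered 3962 of 93092 bases. For Peg13 (chromosome 15, 72805600 to 72810324, minus strand) the feature ENSMUSG00000047921 touched the gene with 1 of its 27 blocks, over 164 of 4725 bases. Those 164 are 2.07% of the 7937 bases of the feature, whose other blocks lie over no GENCODE M21 exon, and how many of its counts fell on Peg13 was not tested.

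The Peg13 stretch is shown because it is the only part of that gene under the feature. It is chr15:72808811-72808974 in GRCm38, minus strand, bases 1351 to 1514 of the GENCODE M21 transcript.
Peg13 stretch: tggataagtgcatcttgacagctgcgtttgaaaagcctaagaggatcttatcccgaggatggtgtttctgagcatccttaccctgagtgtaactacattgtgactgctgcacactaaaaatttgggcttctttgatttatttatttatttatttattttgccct

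The 2 promoter windows of Zdbf2 are shown because Zdbf2 had the largest difference of the 4 genes and has both an upstream and a proximal start. They come from RefSeq on GRCm38.p6 and run from 250 bases before to 50 bases after a transcript start, on the plus strand. Capitals mark the letters TGCCGC or, on the other strand, GCGGCA, the methylation-dependent recognition sequence of ZFP57, a protein that maintains imprints, and the letters TGACGTCA, the full cAMP response element, which reads the same on both strands.
Zdbf2 upstream start, chr1:63200108-63200407: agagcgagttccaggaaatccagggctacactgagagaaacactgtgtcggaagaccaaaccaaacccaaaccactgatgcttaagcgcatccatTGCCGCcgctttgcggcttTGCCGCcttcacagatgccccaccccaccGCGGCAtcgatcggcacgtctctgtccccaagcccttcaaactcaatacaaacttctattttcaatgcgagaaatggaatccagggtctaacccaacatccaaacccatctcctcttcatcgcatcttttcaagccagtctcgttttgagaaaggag
Zdbf2 proximal start, chr1:63273019-63273318: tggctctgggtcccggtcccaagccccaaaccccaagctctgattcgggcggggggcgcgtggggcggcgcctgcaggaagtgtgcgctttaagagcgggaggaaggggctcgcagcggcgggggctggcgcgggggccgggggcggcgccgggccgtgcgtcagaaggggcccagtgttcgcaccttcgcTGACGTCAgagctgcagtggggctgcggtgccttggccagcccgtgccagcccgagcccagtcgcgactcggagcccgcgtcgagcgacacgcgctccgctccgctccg

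The upstream window held 3 ZFP57 hexamers and no full cAMP response element, with 15 CpG dinucleotides and 51.3% G+C. The proximal window held 1 full cAMP response element and no ZFP57 hexamer, with 38 CpG and 74.7% G+C. Of 32851 promoter windows of the same length, 11.61% held at least 1 ZFP57 hexamer, 1.531% held at least 2, and 1.79% held the full cAMP response element. The window of Rasgrf1 (26 CpG) and that of Kcnq1ot1 (9 CpG) held neither set of letters, and the median window had 7 CpG. A match is a description of letters, and none of the deposited values measures binding or methylation there.

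Zdbf2 stood at 52.2 and 50.2 CPM in KI replicates 1 and 3, against 24.4, 24.9 and 34.4 CPM in WT replicates 1 to 3. Both KI libraries lay above all 3 WT libraries, as for 11.3% of all tested features. The gap between the groups was wider than the range within either. The mean was 51.2 ± 1.43 CPM in KI (SD, n = 2) and 27.9 ± 5.66 CPM in WT (SD, n = 3), a fold change of 1.835, or 0.88 on the log2 scale (SE 0.21). The counts behind these levels were 385 and 405 fragments in KI and 186, 186 and 225 in WT.

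A second feature reads another 291 exon bases at the 3′ end of Zdbf2. Those 291 are a small part of its 12659 bases, and its span runs to position 63353735, past the end of the gene at 63314576. It covers no exon of another GENCODE M21 gene, and how many of its counts fell on Zdbf2 was not tested. It stood at 27.8 and 35.3 CPM in KI replicates 1 and 3, against 23.5, 16.6 and 16.1 CPM in WT replicates 1 to 3. Its log2 fold change was 0.75 (SE 0.26). The groups again did not overlap, with both KI libraries above all WT libraries as for 11.3% of all tested features. The library order differed between the features: WT replicate 3 was the highest WT library for the first and the lowest for the second. The features lie close together, and a fragment that reaches into both was counted for each, so they are not independent readings.

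Rasgrf1 stood at 336 and 318 CPM in KI replicates 1 and 3, against 274, 267 and 233 CPM in WT replicates 1 to 3. Both KI libraries were above all WT libraries, as for 11.3% of all tested features, with a gap only slightly wider than the range of the WT libraries. The mean was 327 ± 12.6 CPM in KI (SD, n = 2) and 258 ± 21.7 CPM in WT (SD, n = 3), a fold change of 1.27, or 0.34 on the log2 scale (SE 0.12).

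Rasgrf1 is covered by 4 features in all, spread along the gene and partly over its introns. The first of the other features, centred 5.71 kb from the gene's start over 552 exon bases, stood at 48.1 and 52.6 CPM in KI and 38.7, 34.1 and 35.2 CPM in WT (log2 fold change 0.48, SE 0.18). The second, centred at 37.3 kb over 278 exon bases, stood at 213 and 207 CPM in KI and 174, 185 and 178 CPM in WT (0.23, SE 0.12). In both, the KI libraries lay above all WT libraries, as for 11.3% of all tested features. The third, centred at 91.5 kb and touching only 56 exon bases, stood at 133 and 106 CPM in KI and 104, 112 and 102 CPM in WT (0.17, SE 0.14), and there KI replicate 3 fell within the WT range. A spliced fragment can be counted by more than 1 of these features.

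Peg13 stood at 76.6 and 69.3 CPM in KI replicates 1 and 3, against 73.2, 63.5 and 71.2 CPM in WT replicates 1 to 3. The groups overlapped, with KI replicate 3 below WT replicates 1 and 3. The mean was 73.0 ± 5.10 CPM in KI (SD, n = 2) and 69.3 ± 5.11 CPM in WT (SD, n = 3), and the difference was smaller than the SD of either group (log2 fold change 0.07, SE 0.15). Reads from introns of the host gene Trappc9 were few: 6 features in those introns with no GRCm38 exon, 21837 bases in all, held 9 and 4 counts in KI and 5, 3 and 17 in WT, against 565 and 560 counts in KI and 557, 475 and 465 in WT on the Peg13 feature.

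Kcnq1ot1 stood at 16.3 and 19.3 CPM in KI replicates 1 and 3, against 8.80, 16.2 and 17.8 CPM in WT replicates 1 to 3. WT replicate 1 was low, and the other WT libraries lay at the level of the KI libraries, so the groups overlapped. The mean was 17.8 ± 2.16 CPM in KI (SD, n = 2) and 14.2 ± 4.78 CPM in WT (SD, n = 3), with a log2 fold change of 0.32 (SE 0.34). Without WT replicate 1 the log2 fold change was 0.08.

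**Figure D1:**
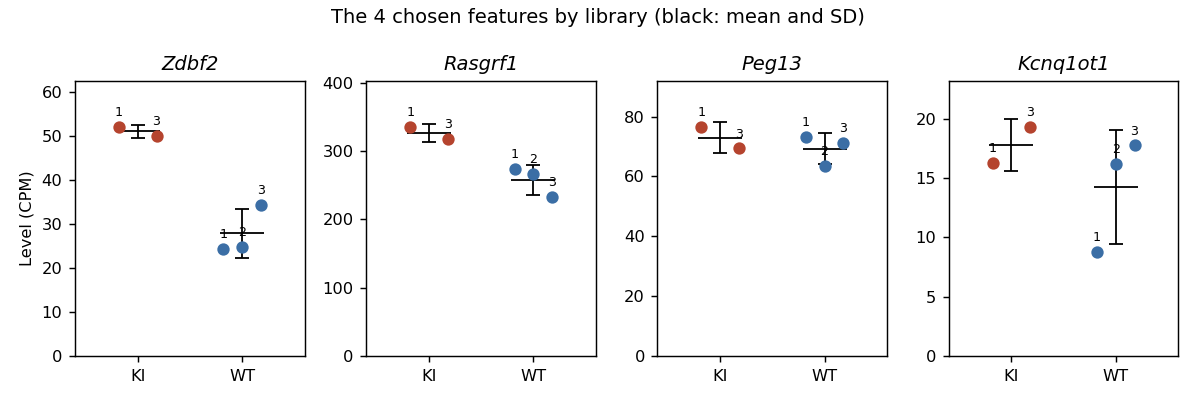
Level of the feature over each of the 4 genes in CPM (vertical axis, from 0) for the KI libraries and the WT libraries, with the replicate number beside each point and the mean and SD in black. The KI points lie above the WT points for Zdbf2 and Rasgrf1, as for 11.3% of all tested features, and the groups overlap for Peg13 and Kcnq1ot1.

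The other features over Kcnq1ot1 had negative differences. The feature centred 27.0 kb from the start of Kcnq1ot1, with 4865 bases over it, which also covers Gm27539, stood at 9.35 and 11.3 CPM in KI and 12.1, 12.2 and 11.6 CPM in WT, both KI libraries below all WT libraries, as for 11.1% of all tested features (log2 fold change -0.21, SE 0.33). The feature centred at 82.6 kb, with 723 of its 1698 bases over Kcnq1ot1, also covers exons of Kcnq1 and so is no reading of Kcnq1ot1 alone. It stood at 5.69 and 4.95 CPM in KI and 7.22, 5.35 and 6.12 CPM in WT (-0.23, SE 0.46), with overlap. WT replicate 1, the lowest library at the chosen feature, was the highest WT library at 82.6 kb. Each of these log2 fold changes was smaller than its SE, and the 3 features gave no common direction.

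Strand was ignored in counting, so the antisense Kcnq1ot1 and its host Kcnq1 cannot be told apart by strand. The feature over Kcnq1 alone, the potassium channel gene, covers 295 of its exon bases and held 0 and 4 counts in KI and 1, 0 and 0 in WT. The feature at 82.6 kb, shared by Kcnq1 and Kcnq1ot1, held 42 and 40 counts in KI and 55, 40 and 40 in WT, and the share of each gene in it cannot be told apart. A further 9 features in Kcnq1 introns outside Kcnq1ot1, 24539 bases in all, held 9 and 2 counts in KI and 11, 1 and 0 in WT.

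**Figure D2:**
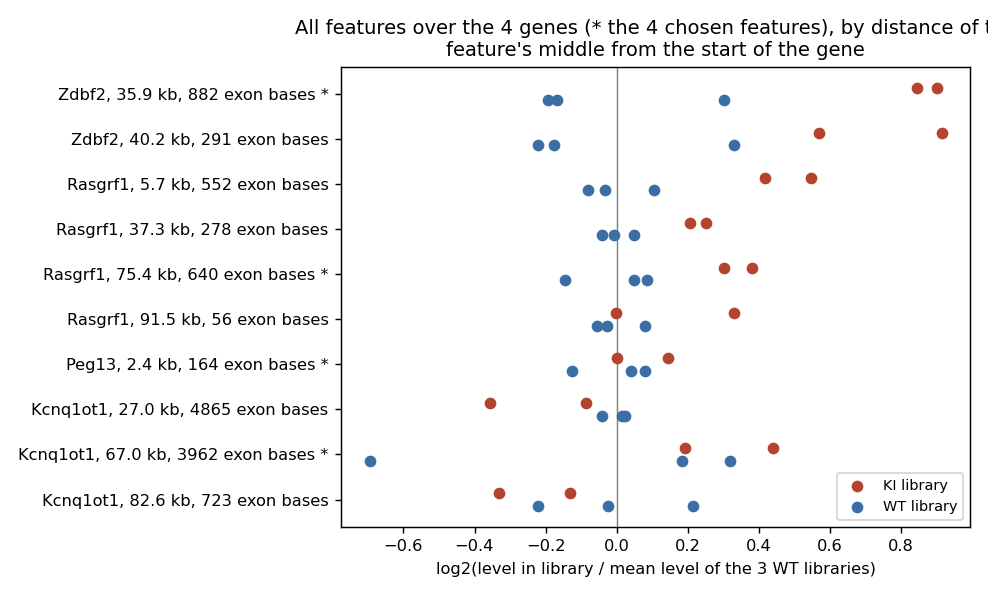
Each row is a feature over 1 of the 4 genes, labelled by the distance of its middle from the start of the gene and the exon bases it covers, with the chosen features starred. The horizontal axis is the log2 ratio of each library to the mean of the 3 WT libraries, KI in red above WT in blue. KI lies to the right of all WT libraries at both Zdbf2 features and at 3 of 4 Rasgrf1 features, as for 11.3% of all tested features. At no Kcnq1ot1 feature does KI lie above all WT libraries. Features of the same gene can share fragments and are not independent readings.

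In the fit over all features, 14 of 13665 tested features changed (edgeR quasi-likelihood test, Benjamini-Hochberg adjusted p under 0.05), which is 0.102%, with 0.0439% higher and 0.0585% lower in KI, and 0 of the 4 genes were among them. At an unadjusted p under 0.05 there were 2 of the 4 and 874 (6.4%) of all features. The DESeq2 Wald test called 1 of the 4 (Zdbf2) and 1.27% of all features with an adjusted p, and limma voom called 0 of the 4 and 0.381% of all. Both KI libraries lay above all 3 WT libraries for 2 of the 4, and for 11.3% of all tested features. Since these genes were chosen with this contrast known, nothing is read from these counts.

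The differences of the 4 genes held their direction to different degrees when the processing changed. Over 12 alternatives the log2 fold change of Zdbf2 ran from 0.79 to 1.06 and that of Rasgrf1 from 0.28 to 0.39. That of Kcnq1ot1 ran from 0.08 to 0.67 and that of Peg13 from -0.0003 to 0.15. The value for Zdbf2 was lowest without WT replicate 1 and highest without WT replicate 3.

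**Figure D3:**
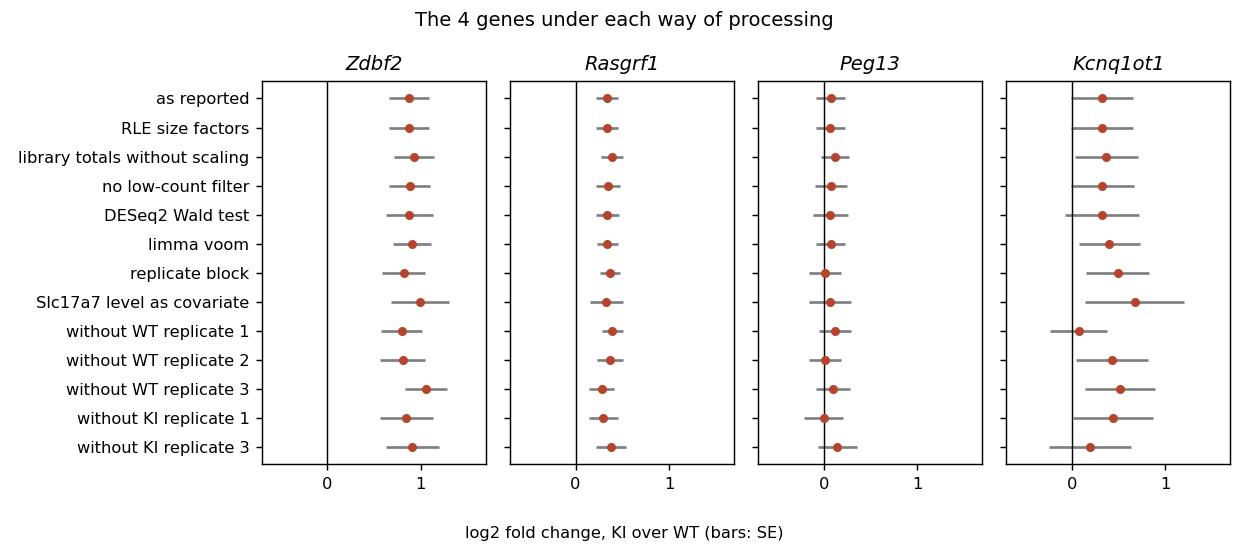
Log2 fold change of KI over WT (horizontal axis) with its SE for each of the 4 genes, under the processing as reported and 12 alternatives (rows). Zdbf2 and Rasgrf1 lie to the right of 0 in every row, Peg13 stays near 0, and Kcnq1ot1 moves most, from 0.08 without WT replicate 1 to 0.67 with the Slc17a7 level as a covariate.

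Markers of other cell types also differed between the libraries, and in bulk tissue fewer cells of a type and less RNA per cell cannot be told apart. Spiny projection neuron markers (9 of 20 with a feature) summed to 7584 and 8420 CPM in KI, below the 9022 to 11797 CPM in WT. Most of that sum is Penk, the proenkephalin gene, at 5296 and 5903 CPM in KI and 6722, 8271 and 7355 CPM in WT (edgeR adjusted p = 0.09917), on a feature that also covers A830012C17Rik. Without Penk the sums were 2288 and 2517 CPM in KI and 2300, 3526 and 3189 CPM in WT, with overlap. Of the 8 markers on this list that were tested, 6 were lower in KI, and the median log2 fold change over the 8 was -0.35. Among the 6, Rgs9 stood at 177 and 223 CPM in KI and 301, 507 and 419 CPM in WT (-1.03, SE 0.19). The other 2, Tac1 (0.14) and Rarb (0.21), had positive differences. Cortical glutamate neuron markers (3 of 10, among them Slc17a7) summed to 108 and 26.9 CPM in KI and 81.8 to 320 CPM in WT, with overlap. With the level of Slc17a7, the vesicular glutamate transporter of cortical neurons, as a covariate, the log2 fold change was 0.99 for Zdbf2 and 0.33 for Rasgrf1.

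Imprinted genes are often abundant in the hypothalamus, and markers of hypothalamus and ventral forebrain (6 of 17 with a feature) summed to 384 and 256 CPM in KI and 309, 223 and 219 CPM in WT. KI replicate 1 was the highest and KI replicate 3 lay within the WT range. Most of that sum is Hap1, at 236 and 167 CPM in KI and 187, 121 and 133 CPM in WT. Of the 6 markers 5 had a positive difference between KI and WT. The other, Slc17a6, stood at 32.9 and 4.21 CPM in KI and 47.8, 14.8 and 4.59 CPM in WT. Choroid plexus and ependyma markers (4 of 11), led by the transthyretin gene Ttr, summed to 2106 CPM in KI replicate 3, against 37.9 CPM in KI replicate 1 and 62.8 to 71.3 CPM in WT. Without KI replicate 3 the log2 fold change was 0.91 for Zdbf2 and 0.38 for Rasgrf1. Oligodendrocyte markers (4 of 8) summed to 1470 and 1522 CPM in KI and 1561 to 2071 CPM in WT. Astrocyte markers (3 of 7) summed to 125 and 131 CPM in KI and 133 to 158 CPM in WT, and microglia markers (2 of 7) to 17.2 and 21.2 CPM in KI and 21.4 to 28.6 CPM in WT. Endothelial markers (3 of 7) summed to 127 and 132 CPM in KI and 106 to 137 CPM in WT. Of the markers with a feature, Meis2 and the choroid plexus gene Kcne2 held at most 3 counts in every library, and the part of these markers in the results was not tested.

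Genes next to the 4 could be examined for a difference in few cases. Of 53 listed neighbours 21 had a feature and 10 were tested, and 6 were higher and 4 lower in KI with a median log2 fold change of 0.03, against -0.0021 over all tested features. None was called by edgeR, DESeq2 or limma voom, which called 0.102%, 1.27% and 0.381% of all features. An unadjusted edgeR p under 0.05 was found for 0 of the 10, against 6.4% of all features. With 10 genes nothing is read from these counts. Beside Zdbf2, Ndufs1, a respiratory complex I gene, stood at 387 and 349 CPM in KI and 405, 371 and 345 CPM in WT (log2 fold change -0.02, SE 0.12, edgeR adjusted p = 0.9996). Ino80dos and Gm24557 share the Ndufs1 feature. Gpr1, a chemerin receptor gene next to Zdbf2, held only 28 and 19 counts in KI and 12, 29 and 0 in WT.

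Beside Rasgrf1, Ctsh, which encodes the protease cathepsin H, stood at 41.6 and 37.1 CPM in KI and 48.1, 31.0 and 34.6 CPM in WT (log2 fold change 0.05, SE 0.22, edgeR adjusted p = 0.9996). Morf4l1, a chromatin gene on the far side of Ctsh, stood at 22.4 and 21.1 CPM in KI and 24.6, 23.1 and 17.1 CPM in WT (0.00, SE 0.26, edgeR adjusted p = 0.9996). The KI libraries of both neighbours lay within the WT range.

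At the Peg13 locus none of the 4 neighbours with a feature of their own (Ptk2, Dennd3, Slc45a4 and Fam135b) reached the level needed for a test, and each held at most 9 counts in any library. The feature ENSMUSG00000022607 lies over exons of Ptk2, Chrac1, Ago2 and 1700085D07Rik together, which it cannot separate. It stood at 146 and 172 CPM in KI and 157, 171 and 182 CPM in WT (log2 fold change -0.09, SE 0.13, edgeR adjusted p = 0.9994). At the Kcnq1ot1 locus Cd81, a tetraspanin gene, stood at 340 and 305 CPM in KI and 386, 353 and 284 CPM in WT (log2 fold change -0.08, SE 0.14, edgeR adjusted p = 0.9994). Cars, a cysteinyl-tRNA synthetase gene, stood at 18.3 and 13.3 CPM in KI and 13.7, 15.6 and 12.9 CPM in WT (0.16, SE 0.30, edgeR adjusted p = 0.9994). The feature over Cd81 also covers R74862, and that over Cars covers only 51 exon bases of Cars. Of the genes that Kcnq1ot1 is known to silence, Cdkn1c and Phlda2 had no feature named by position, and the feature over Kcnq1 alone was too low to test.

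Other imprinted genes were set beside the 4. Of 27 other paternally expressed genes 8 had a feature and 5 were tested, all 5 at a higher mean in KI with a median log2 fold change of 0.67, and 3 were called higher by edgeR, where 0.0439% of all features were. The 3 were Peg10, a retrotransposon-derived gene (log2 fold change 2.47, SE 0.14, adjusted p = 1.433e-06), Usp29 (1.07, SE 0.12, adjusted p = 0.002089) and Peg3, a zinc finger gene (0.67, SE 0.09, adjusted p = 0.006394). Peg10 was called in all 12 alternatives, Usp29 in 10 and Peg3 in 8. Peg3 lost its call with the Slc17a7 covariate (adjusted p = 0.526) and without WT replicate 2, WT replicate 3 or KI replicate 3, and Usp29 with that covariate (adjusted p = 0.1566) and without WT replicate 3. The feature over Usp29 also covers Gm44863 and Zim3. These calls were known when the lists were written and are no independent evidence. Rtl1 and Sgce made up the 5, but the feature taken for Rtl1 also covers the maternally expressed Meg3 and Rian, from which it cannot be separated. All 5 belong to the Peg10, Peg3 or Meg3 loci.

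Outside those 3 loci, 0 of 19 other paternally expressed genes could be tested, so Zdbf2, Rasgrf1, Peg13 and Kcnq1ot1 were the only ones measured there. Of 33 maternally expressed genes 16 had a feature and 13 were tested, with 7 higher and 6 lower in KI and a median log2 fold change of 0.13. The edgeR test called 0 of them, the DESeq2 Wald test 2 (Zim1 and Meg3) and limma voom 1 (Meg3). These tests called 0.102%, 1.27% and 0.381% of all features. At an unadjusted edgeR p under 0.05 there were 4 of the 13 (Zim1, Meg3, Calcr and Asb4), against 6.4% of all features. Calcr had the largest difference (2.65, SE 0.79), at 16.9 and 12.6 CPM in KI and 4.73, 0 and 2.30 CPM in WT. The smallest p belonged to Zim1, a zinc finger gene of the Peg3 locus (1.65, SE 0.34, edgeR adjusted p = 0.08769), and Meg3, a long noncoding RNA (0.50, SE 0.11, edgeR adjusted p = 0.09273). The 5 genes of the maternally expressed list tested outside the 3 loci (Ube3a, Copg2, H13, Cd81 and Igf2r) lay between -0.13 and 0.53 with a median of -0.06. Of these 5, 0 had an unadjusted p under 0.05. Which parental copy they were transcribed from in striatum was not measured, so their imprinting there is not shown. The feature over H13 covers only 60 exon bases of its gene, and that over Copg2 only 72.

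**Figure D4:**
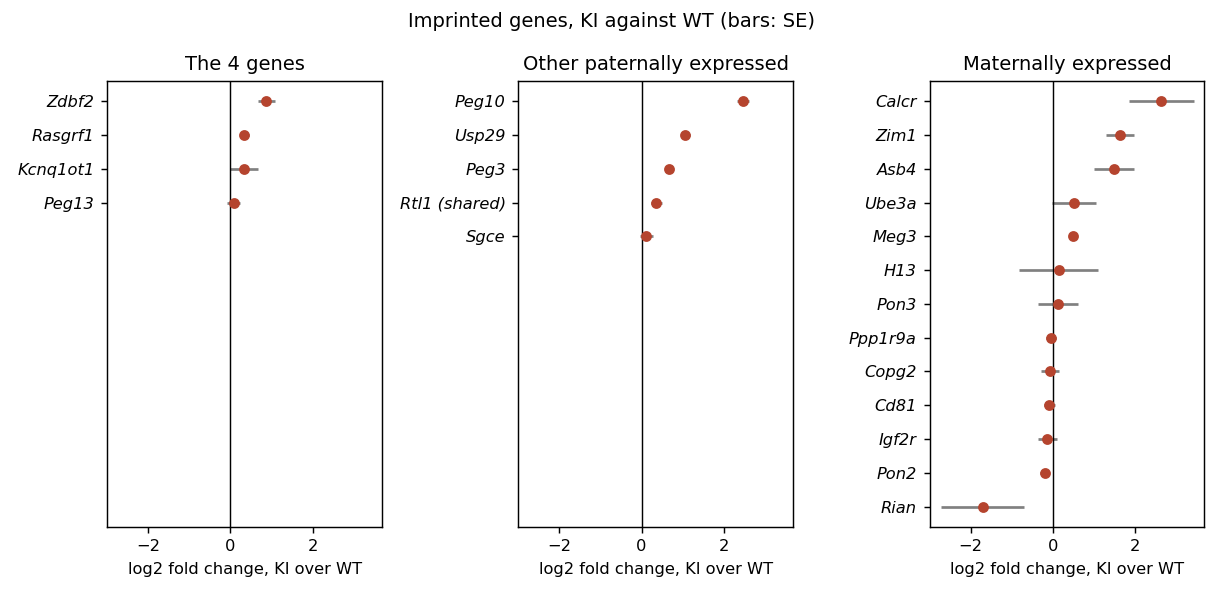
Log2 fold change of KI over WT (horizontal axis) with its SE for the 4 genes, the other paternally expressed genes tested and the maternally expressed genes tested. Among the paternally expressed genes plotted, Peg10 lies farthest to the right at 2.47 and Peg13 lies nearest to 0 at 0.07. Among the maternally expressed genes Calcr lies farthest to the right, at 2.65 (SE 0.79). The feature for Rtl1 is shared with Meg3 and Rian. The genes were chosen with these values known, so no difference between the groups of genes is read from the plot.

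Factors that set or maintain imprints were also set beside the 4 genes. Of 33 such genes 18 had a feature and 15 were tested, with 11 higher and 4 lower in KI and a median log2 fold change of 0.05. Over all tested features 49.7% were higher in KI. The edgeR test, the DESeq2 Wald test and limma voom each called 0 of the 15. They called 0.102%, 1.27% and 0.381% of all features, so with 15 genes nothing is read from these counts. Only 1 gene had an unadjusted edgeR p under 0.05, against 6.4% of all features. That gene was Arid4b, a chromatin factor, at 0.57 (SE 0.26, edgeR adjusted p = 0.77), and next by p came Dnmt1, the maintenance DNA methyltransferase, at 0.30 (SE 0.19, edgeR adjusted p = 0.9031).

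Genes that act with Rasgrf1 in signalling from glutamate receptors through Ras to ERK were split. Of 46 listed genes 28 had a feature and 27 were tested, with 16 higher and 11 lower in KI and a median log2 fold change of 0.03. The edgeR test called 0, the DESeq2 Wald test 3 (Ntrk2, Rasgrp2 and Calm2) and limma voom 1 (Ntrk2). These tests called 0.102%, 1.27% and 0.381% of all features. At an unadjusted p under 0.05 there were 7 of the 27, against 6.4% of all features. Both KI libraries were above all WT libraries for 6 of the 27, against 11.3% of all features, and below them for 6, against 11.1%.

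Ntrk2, the gene of the BDNF receptor TrkB, which feeds into Ras and ERK, had the smallest p. It stood at 218 and 208 CPM in KI and 113, 142 and 139 CPM in WT, with both KI libraries above all WT libraries (log2 fold change 0.70, SE 0.13, edgeR adjusted p = 0.07139). It was called in 5 of 12 alternatives, with adjusted p from 0.0001832 to 0.526, and its feature also covers 4930415C11Rik and Gm34354. Rasgrp2, another Ras-family exchange factor gene and also a marker of spiny projection neurons, stood at 63.4 and 93.9 CPM in KI and 112, 192 and 162 CPM in WT (-0.98, SE 0.22, edgeR adjusted p = 0.1081). It was called in 4 of 12 alternatives, with adjusted p from 2.378e-07 to 0.9998. The levels of its marker list are given above, and their part in the Rasgrp2 value was not tested.

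Some genes next to Rasgrf1 in the pathway were named after their values were seen. Rasgrf2, the closest relative of Rasgrf1, stood at 21.5 and 13.4 CPM in KI and 16.5, 12.96 and 17.6 CPM in WT, with overlap (log2 fold change 0.15, SE 0.31), and the difference was -0.23 without KI replicate 1. Hras, a substrate of Rasgrf1, stood at 675 and 775 CPM in KI and 879, 867 and 839 CPM in WT (-0.25, SE 0.10, edgeR adjusted p = 0.6728). Calm2, a calmodulin gene, stood at 869 and 866 CPM in KI and 1019, 1184 and 1153 CPM in WT (-0.37, SE 0.10, edgeR adjusted p = 0.2477), and it was called in 3 of 12 alternatives, with adjusted p from 0.01187 to 0.9998. Nf1, which turns Ras off, stood at 70.1 and 67.6 CPM in KI and 51.5, 49.2 and 54.8 CPM in WT (0.41, SE 0.16, edgeR adjusted p = 0.6329). The KI libraries lay below all WT libraries for Hras and Calm2, as for 11.1% of all tested features. They lay above all WT libraries for Nf1, as for 11.3%. None of Hras, Calm2 and Nf1 passed the edgeR threshold, and since they were picked by their values nothing is read from these separations. The Calm2 feature covers only 31 exon bases of that gene.

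Among the protein-coding features of at least 5 CPM on average, the library profile most like that of Zdbf2 belonged to Elmod3, Zfp369 and Ccdc112. Likeness was the Euclidean distance between log2 CPM profiles centred on their mean over the 5 libraries, and the 3 distances ran from 0.2485 to 0.2758, where the Zdbf2 profile itself lay 1.0471 from a flat one. Elmod3 stood at 22.9 and 20.3 CPM in KI and 10.2, 12.4 and 14.1 CPM in WT. For Rasgrf1 (0.4188 from flat) the nearest were Ankib1, Ehd3 and Fam120a, at distances of 0.0648 to 0.0939. Ankib1 stood at 12.7 and 12.8 CPM in KI and 10.9, 10.4 and 9.18 CPM in WT.

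For Kcnq1ot1 (0.8802 from flat) the nearest were Zfp418, Rbm6 and Sorcs2, at distances of 0.1217 to 0.196. Each shared the low value in WT replicate 1: Sorcs2, a neuronal sorting receptor gene, stood at 34.6 and 35.9 CPM in KI and 19.8, 33.7 and 35.7 CPM in WT. For Peg13 (0.2007 from flat) the nearest were Sbf1, Tmod2 and Sugp2, at distances of 0.0307 to 0.0531, all with nearly flat profiles. With 6458 candidate features and 5 libraries such distances describe the profiles and carry no test.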

How the data were processed

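RNA from mouse striatum was sequenced in 5 libraries from a strand-specific mRNA kit of Illumina, per the labels' protocols. The deposited values are raw counts of fragments per feature, made by the authors with featureCounts 2.0.1 on the GRCm39 features of Ensembl release 103; both come from the file headers. Each fragment counted for all features under it whatever its strand, so genes that overlap, antisense ones included, share counts. Aligner and alignment build: not given in the sources used here.

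Each feature's numeric position was intersected with GENCODE M21 (GRCm38) exons in bedtools 2.31.1; coordinates were left as deposited. A feature took the name of the only gene there, or of the only protein-coding one; 16422 of 53700 features were named. A gene in a list was represented by its named feature with the largest overlap. KI was compared with WT over all 5 libraries with filterByExpr, TMM scaling and the edgeR quasi-likelihood test (version 4.0.16, R 4.3.3), and p-values were adjusted by Benjamini-Hochberg over 13665 features with a threshold of 0.05. CPM use TMM-scaled library sizes, and log2 profiles a prior count of 2. The fit was tested on simulated data. Alternatives were other scalings, no filter, DESeq2 1.42.0, limma voom (limma 3.58.1), a replicate block, the Slc17a7 level as a covariate and leaving out each library.

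The 4 genes and the gene lists were chosen with earlier results of these data known. The genes named from a list were those past the threshold or, where fewer than 2 passed, those with the smallest p up to 2. Rasgrf2, Hras, Calm2, Nf1 and the feature shared by Ptk2, Ago2 and Chrac1 were added after their values were seen. The markers Rgs9, Tac1, Rarb, Meis2, Kcne2, Hap1 and Slc17a6 were also added after their values were seen. The same holds for Calcr and Asb4 among the maternally expressed genes. Any neighbour with a feature could be named, and the 3 most similar profiles were named per gene. Sequences come from RefSeq promoter windows on GRCm38.p6, matched by symbol for 3 of the 4 genes, and from the GENCODE M21 transcripts.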

Additional observations from a re-analysis of the deposited data

How the results depend on the processing

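The differences of Zdbf2, Rasgrf1, Peg13 and Kcnq1ot1 moved by less than 1 SD between libraries under each of 12 alternatives. With 1 library left out in turn the log2 fold change ran from 0.79 to 1.06 for Zdbf2, 0.28 to 0.39 for Rasgrf1, -0.0003 to 0.15 for Peg13 and 0.08 to 0.52 for Kcnq1ot1. The number of changed features was 14 as reported, 183 with no low-count filter, 130 with the DESeq2 Wald test, 52 with limma voom, 154 with the replicate block, 2 with the Slc17a7 level as a covariate, and 2 to 161 with 1 library left out (161 without WT replicate 1, 3 without WT replicate 2, 2 without WT replicate 3, 30 without KI replicate 1 and 6 without KI replicate 3). Among the other imprinted genes and locus neighbours 3 were called as reported, 6 with no filter, 5 with DESeq2, 7 with the replicate block, 1 with the Slc17a7 covariate and 1 to 6 with 1 library left out. Among Ras-ERK and imprint maintenance genes the count was 0 as reported, 2 with no filter, 3 with DESeq2, 1 with limma voom, 3 with the replicate block and 0 to 3 with 1 library left out. For 19 single features tested in the text, 183 alternative values kept direction and call, 23 gained a call, 6 lost one and 16 changed sign. The changes of sign were all in features without a call under any alternative. With 1 library left out the log2 fold change ran from -0.068 to 0.270 for Ctsh, -0.131 to 0.112 for Morf4l1, -0.100 to 0.0518 for Ndufs1, -0.233 to 0.458 for Rasgrf2, -0.0871 to 0.381 for Cars, -0.191 to 0.0243 for Cd81 and -0.215 to 0.017 for the feature shared by Ptk2, Ago2 and Chrac1. The other changes of sign were Ctsh at -0.0553 and Rasgrf2 at -0.0018 with the replicate block, Ctsh at -0.138 and Morf4l1 at -0.0572 with the Slc17a7 covariate, and Ndufs1 at 0.0269 with unscaled totals. Usp29 lost its call with the Slc17a7 covariate and without WT replicate 3, and Peg3 with that covariate and without WT replicate 2, WT replicate 3 or KI replicate 3. The cause was not tested.

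KI and WT share only the replicate numbers 1 and 3. Deviations from the group means correlated at 0.11 for number 1 and 0.07 for number 3 across features. With 2 KI libraries their deviations are exact opposites, so these values are not separate readings. KI replicate 3 and WT replicate 2, which share no number, correlated at 0.05. The pairs are too few to show that the numbers pair the libraries, and WT replicate 2 adds nothing to the block. A fit with 1 KI library takes its spread from the WT libraries. Kcnq1ot1 rests on 67 to 156 fragments per library, and the chosen feature of each of the 4 genes covers at most 6.97% of its exon bases.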
